A study of Morus alba var. atropurpurea with 12 samples.

Results

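The 200 most abundant transcripts of untreated mulberry roots are described here across a cadmium dose series. They were chosen by ranking all 22727 listed transcripts on their mean level over the 3 control libraries and keeping ranks 1 to 200, which is 0.88% of the transcripts. The plants were Morus alba var. atropurpurea, cultivar Yuesang10, and the tissue is labelled root. All seedlings grew in soil for 3 months, were cut back to 10 cm of shoot and 2 cm of root, and stood in aerated Hoagland nutrient solution for 3 days before the exposure. The control group then stayed in that solution without cadmium, and the other groups received cadmium chloride at 5, 10 or 20 mM. The solution was changed every 5 days in all groups, and fresh roots were collected after 20 days. Each group has 3 libraries, and the labels leave unsaid whether a group's libraries are from different plants, so each p-value reflects the spread between libraries, which may be technical. The values are FPKM, fragments scaled to transcript length and to mapped fragments, and a transcript that a table did not list was set to 0.

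In most tissues a small set of genes supplies a large part of the messenger RNA. In plant roots these are usually genes for protein synthesis, energy metabolism, the cell wall, water transport, redox protection and defence. Cadmium is a metal with no known use in most plants. It binds to thiol groups, and plant cells chelate it with glutathione-derived phytochelatins and with metallothioneins and move it into the vacuole. The tables give transcripts as identifiers only and do not pair them with gene names, so no role is given to any transcript below. Markers of root, leaf or fruit could not be looked up for the same reason, and the label root was not checked against them. The text that describes the series speaks of fruit, whereas every sample label says root, and the treatment notes count 6 groups of plants while naming only these doses and the control.

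Libraries listed between 19381 and 20071 transcripts, and their FPKM sums ran from 883726 to 976884. Read depth is not given in the sources used here. Control replicate 2 stood apart in the measures used below. It listed the fewest transcripts (19381), had the lowest median over the 17782 tested transcripts (8.86 FPKM, against 9.96 to 11.96 FPKM in the other 11 libraries) and gave the members their highest share.

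The 200 transcripts held between 25.7% and 31.4% of a library's FPKM sum. Their share was 28.4%, 31.4% and 26.7% in control replicates 1, 2 and 3. At 5 mM it was 28.4%, 27.2% and 26.2%, at 10 mM 25.7%, 26.7% and 26.8%, and at 20 mM 28.1%, 26.0% and 27.9%. The control mean was 28.8% ± 2.39, and the means at 5, 10 and 20 mM were 27.3% ± 1.12, 26.4% ± 0.584 and 27.4% ± 1.15 (SD, n = 3). The treated libraries thus lay between 25.7% and 28.4%, inside or just under the span of the other 2 control libraries once control replicate 2 was set aside. The control share was also the value on which the members were chosen, so it was taken again with members ranked on 2 control libraries and measured in the control library left out of the ranking. It was then 27.4% in replicate 1, 30.2% in replicate 2 and 25.6% in replicate 3, and the treated group means with those members lay between 25.9% and 27.5%.

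Within the set, abundance was concentrated at the top. The first 10 members held 5.18% to 6.90% of the FPKM sum in control libraries, and their ranges at 5, 10 and 20 mM were 5.94% to 6.35%, 5.30% to 6.09% and 6.32% to 6.62%. The last 100 members together held 8.45% ± 0.492 in control, and 8.07% ± 0.239, 8.19% ± 0.270 and 8.0% ± 0.299 at 5, 10 and 20 mM. Each of these spans overlaps that of the control libraries. The order of the groups depended on which of them the list was chosen from. The 200 most abundant transcripts of the 20 mM group held 29.0% ± 1.19 at 20 mM and 27.6% ± 2.30 in control, and those of the control group held 27.4% at 20 mM and 28.8% in control. The list of the 5 mM group held 28.1% at 5 mM and 28.0% in control, and that of the 10 mM group 27.5% at 10 mM and 27.8% in control.

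**Figure D1:**
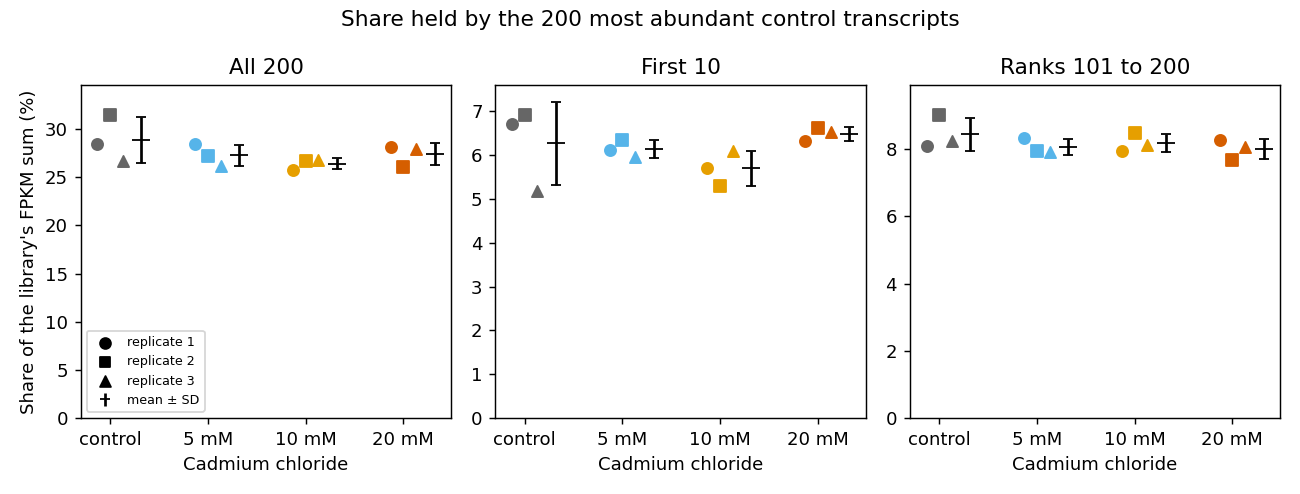
Share of each library's FPKM sum held by all 200 members, by the first 10 and by the last 100, with the dose of cadmium chloride on the x axis, 1 symbol per library and the mean ± SD (n = 3) beside them. All 200 held 25.7% to 28.4% in the 9 treated libraries, and control replicate 2 was the highest library at 31.4%.

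The 5 most abundant transcripts of the control group were also the 5 most abundant at each dose. XM_010108496.1, the first, stood at 14113, 14125 and 8264 FPKM in control, 13735, 19937 and 10264 FPKM at 5 mM, 13609, 7695 and 14167 FPKM at 10 mM, and 16707, 15107 and 19468 FPKM at 20 mM. All 3 libraries at 20 mM lay above the control libraries, while those at 5 and 10 mM overlapped them, and its log2 change at 20 mM was 0.53 ± 0.39 (SE, limma adjusted p = 0.540). XM_010108171.1, the second, stood at 10500, 17994 and 7354 FPKM in control, 6556, 7290 and 8179 FPKM at 5 mM, 9689, 11011 and 9290 FPKM at 10 mM, and 10958, 10256 and 15116 FPKM at 20 mM. Its control libraries spanned all values at 10 and 20 mM, but the 5 mM libraries at 6556 and 7290 FPKM lay below them. Its control coefficient of variation was 45.7%.

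The next 3 transcripts also overlapped between control and each dose. XM_010097372.1 averaged 7006 ± 1944 FPKM in control, 7210 ± 1692 FPKM at 5 mM, 6899 ± 1940 FPKM at 10 mM and 7550 ± 2283 FPKM at 20 mM (SD, n = 3). XM_010099964.1 averaged 6491 ± 1804 FPKM in control, 5367 ± 190.4 FPKM at 5 mM, 6353 ± 1763 FPKM at 10 mM and 4757 ± 166 FPKM at 20 mM. XM_010103004.1 averaged 4351 ± 428 FPKM in control, 5668 ± 1691 FPKM at 5 mM, 5560 ± 2167 FPKM at 10 mM and 4678 ± 2126 FPKM at 20 mM. The libraries of 1 group thus differed by amounts as large as those between groups.

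Members 6 to 10 averaged 3022 to 3234 FPKM in control. XM_010091501.1 stood at 3782, 3775 and 2146 FPKM in control, 2305, 1568 and 3044 FPKM at 5 mM, 1028, 1981 and 2004 FPKM at 10 mM, and 871, 2502 and 1200 FPKM at 20 mM. Its control rank of 6 became 16, 32 and 35 at 5, 10 and 20 mM, but 1 library at 20 mM overlapped the control libraries and its adjusted p there was 0.210 (log2 change -1.18 ± 0.43). XM_010090070.1 averaged 3022 ± 526 FPKM in control, 3079 ± 316 FPKM at 5 mM, 2203 ± 502 FPKM at 10 mM and 1788 ± 526 FPKM at 20 mM. Its 20 mM libraries lay below every control library, at an adjusted p of 0.197. XM_010109263.1 averaged 3075 ± 182 FPKM in control, 3219 ± 162 FPKM at 5 mM, 2167 ± 456 FPKM at 10 mM and 3910 ± 795 FPKM at 20 mM. At 10 mM its 3 libraries lay below those of the other groups, with the order of the means not following the dose. XM_010104875.1 averaged 3053 ± 1034 FPKM in control and between 2290 and 3482 FPKM at the doses, and XM_010109258.1 averaged 3025 ± 106 FPKM in control and between 2597 and 3343 FPKM at the doses.

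**Figure D2:**
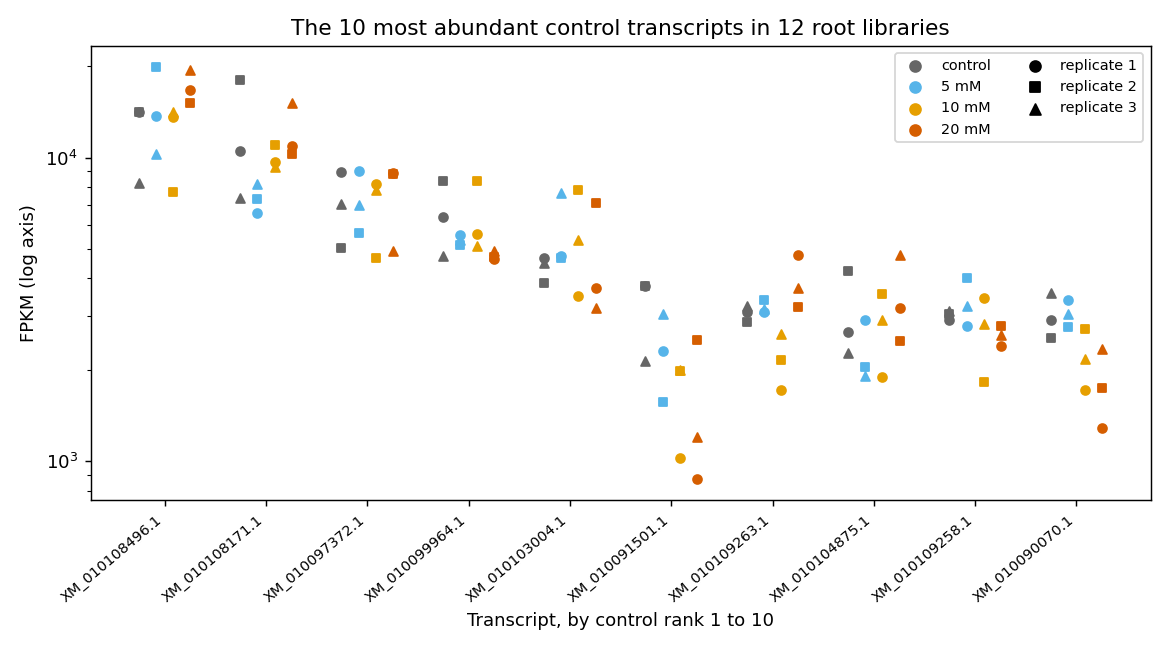
FPKM of the 10 most abundant control transcripts (x axis, in order of control rank) in all 12 libraries on a log axis, with colours for the groups and symbols for replicates 1 to 3. The first 5 have the 5 highest means in every group, and XM_010091501.1 reaches its lowest value, 871 FPKM, at 20 mM.

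Membership at the top of the abundance order was largely shared between groups. The 200 most abundant transcripts at 5 mM included 166 of the members, those at 10 mM 165 and those at 20 mM 158, and 142 members were in all 3 of these lists. The lists of single control libraries shared 146 to 155 of 200 transcripts with each other, the lists of single 20 mM and control libraries 130 to 154, the lists of 10 mM and control libraries 131 to 155, and those of 5 mM and control libraries 141 to 162. The overlap of control with 5 mM libraries thus ran both below and above that between control libraries, and the overlap with 10 and 20 mM libraries ran within and below it. In all 12 libraries 86 members were among the library's own 200, and in all 3 control libraries 135 were.

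Departures came from the lower end of the set. All of the first 50 members stayed among the 200 at every dose, whereas of the last 50 members 30, 27 and 24 did so at 5, 10 and 20 mM. The 42 members outside the 200 at 20 mM had a median control rank of 165 and a median 20 mM rank of 263, and 4 of them stood beyond rank 500. There were 16 members in none of the treated lists and 14 transcripts outside the control 200 in all of them. At 20 mM 2 of the 42 arrivals came from beyond control rank 500, the farthest from rank 1343, and at 5 mM none did, the farthest being rank 412.

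The members lie above a boundary that cuts through a continuous range of levels. The last 5 members had control means of 613 to 625 FPKM, and the first 5 transcripts outside had 610 to 613 FPKM. XM_010109392.1, the last member, stood at 533, 747 and 559 FPKM in control, and XM_010113520.1, the first transcript outside, at 510, 708 and 621 FPKM. The membership of some transcripts rested on 1 control library. In 22 members the highest control library was over 2 times the middle one, and in 13 of these it was control replicate 2.

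Among the transcripts outside the set, XM_010112572.1 had the highest 20 mM mean. It stood at 2355, 738 and 4430 FPKM at 20 mM, against 188, 592 and 313 FPKM in control, and all 3 libraries at 20 mM exceeded the control libraries (log2 change 2.59 ± 0.60, adjusted p = 0.0640). At 5 mM it stood at 1789, 1434 and 1237 FPKM, and at 10 mM at 413, 1030 and 915 FPKM. Its SD at 20 mM, 1851 FPKM, was wider than the distance between the 5 mM and 20 mM means. The next 4 outside transcripts averaged 1009 to 1238 FPKM at 20 mM, which would place them within ranks 55 to 87 of that group.

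Control replicate 2 lay farthest from the treated libraries. It was the highest of the 3 control libraries in 114 of the 200 members (57.0%), whereas it was the highest in 22.6% of all tested transcripts. Set against the mean of the 3 doses, the median log2 difference of the members was 0.14, 0.35 and 0.08 in control replicates 1, 2 and 3, and over all tested transcripts it was -0.0083, -0.21 and -0.0038. The members were ranked on the mean of these control libraries. Their high values there, and which of these libraries is highest, are therefore partly fixed by that choice. The medians over all tested transcripts do not use the ranking. Treated libraries lay between -0.12 and 0.12 for the members and between -0.093 and 0.089 for all tested transcripts. Control replicate 2 was thus outside the range of the treated libraries on both measures, with the members high and all tested transcripts low, and the other 2 control libraries were within or just above it.

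**Figure D3:**
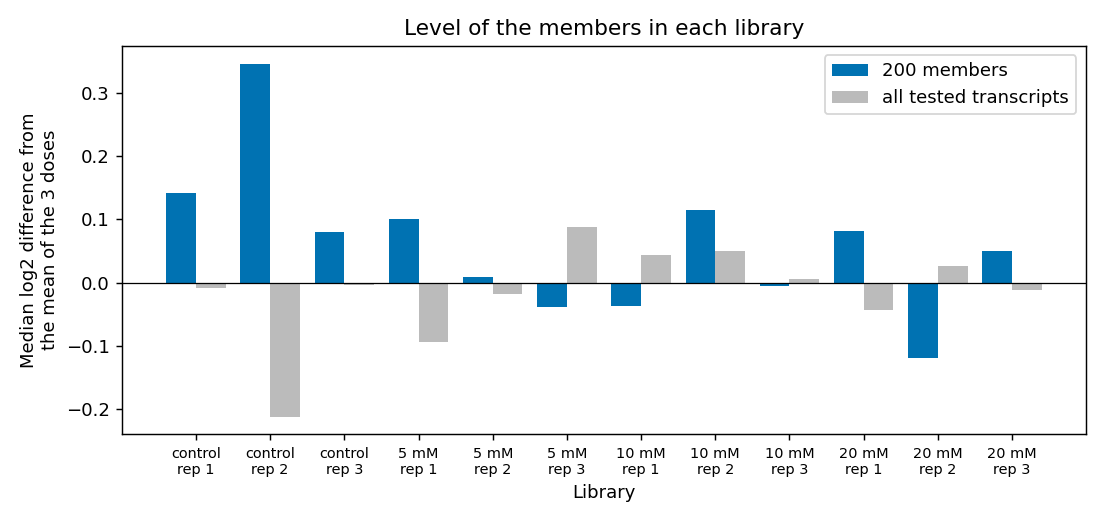
Median log2 difference of each library from the mean of the 3 doses (y axis), on the log2(FPKM + 1) scale, for the 200 members and for all tested transcripts in each of the 12 libraries. Control replicate 2 has the highest bar for the members (0.35) and the lowest for all tested transcripts (-0.21).

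Against control, most members were lower at each dose and few by much. A log2 change below 0 was found at 5, 10 and 20 mM in 127, 130 and 126 of the 200 (63.5%, 65% and 63%), where 42.4%, 41.2% and 44.1% of all tested transcripts were below 0. The median log2 change of the members at these doses was -0.14, -0.16 and -0.15, and the median over all tested transcripts was 0.07, 0.09 and 0.06. Of the 800 transcripts next in the control order, 58.25%, 58.5% and 58.25% were below 0, with medians of -0.063, -0.082 and -0.098. A lean to lower levels was thus not particular to the members. Centring each library on its median moved the medians of all tested transcripts to between -0.018 and -0.0067, a shift of over 0.1 at 10 mM, and those of the members to -0.22, -0.27 and -0.22. Quantile normalization gave members' medians of -0.037, -0.10 and -0.12, and 0.025, 0.011 and 0.030 over all tested transcripts. These differences share the control libraries with the ranking, so a lower level under cadmium is partly fixed by the choice of members and is given without a test.

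With members ranked on 2 control libraries and compared with the library left out, the size of the median, and in 1 case its sign, depended on which library that was. Against control replicate 2 the median log2 change was -0.26, -0.30 and -0.31 at 5, 10 and 20 mM. Against control replicate 1 it was -0.00052, -0.034 and -0.044, and against control replicate 3 it was 0.023, -0.0066 and -0.050. The medians over all tested transcripts were 0.20, 0.23 and 0.20 against control replicate 2. For the other 2 libraries the medians over all tested transcripts lay between -0.0029 and 0.033, so the members and the rest differed by less than 0.1 log2 units. The shares of members below 0 were then 46.0% to 54.5%, where 47.2% to 50.2% of all tested transcripts were, and with control replicate 2 they were 66.5% to 72%, where 34.6% to 36.6% of all tested transcripts were.

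Few members changed past the threshold. By limma with Benjamini-Hochberg adjustment over all tested transcripts, 0 members were called at 5 mM and 0 at 10 mM, where 0.0112% and 0.129% of all tested transcripts were called. At 20 mM 4 members (2%) were called, all lower, where 1.27% of all tested transcripts were called and 0.692% were called lower. At an unadjusted p under 0.05 there were 22 members at 5 mM (11%, against 9.13% of all tested), 36 at 10 mM (18%, against 15.5%) and 39 at 20 mM (19.5%, against 16.2%). Lower levels under cadmium made up 20 of the 22, 29 of the 36 and 34 of the 39, where 4.18%, 4.97% and 6.96% of all tested transcripts were past it and lower. The 3 treated and 3 control libraries did not overlap in 37, 40 and 44 members at 5, 10 and 20 mM (18.5%, 20% and 22%), where 16.9%, 18.8% and 20.7% of all tested transcripts did not. The treated libraries were the lower ones in 31, 37 and 40 of these, against 7.22%, 6.29% and 8.53% of all tested transcripts. Nothing is read from these counts about the members, since the control libraries chose them.

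**Figure D4:**
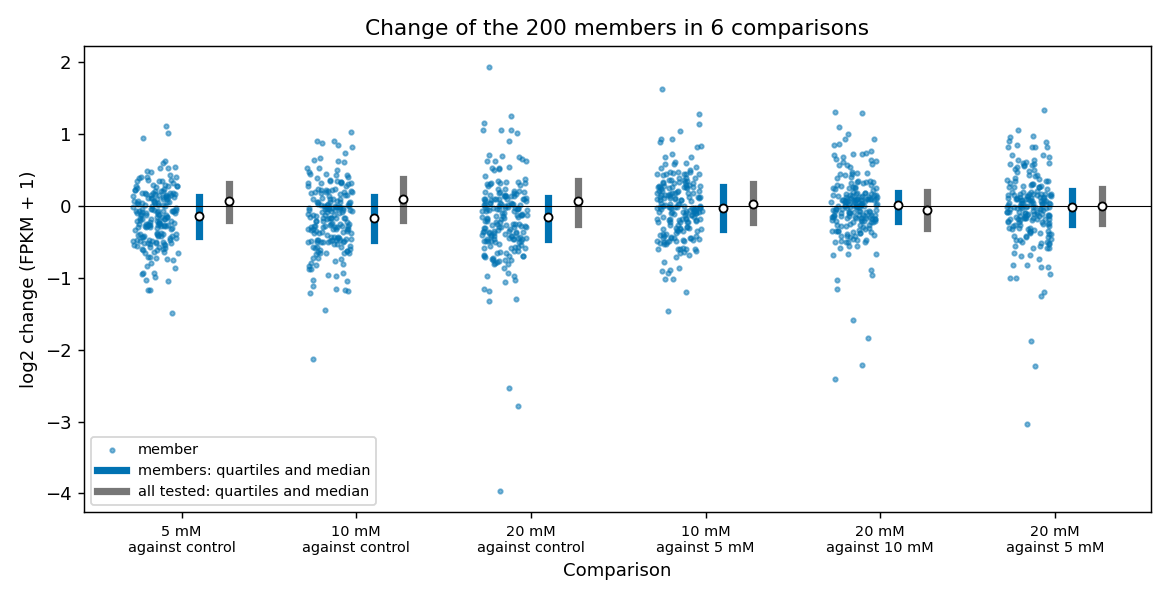
Log2 change on the log2(FPKM + 1) scale (y axis) of each of the 200 members in 6 comparisons (points), with the quartiles and median of the members and of all tested transcripts as bars with a white dot. Against control the members' medians are -0.14, -0.16 and -0.15, and between doses they lie between -0.020 and 0.0091.

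The 4 members called at 20 mM had control ranks of 65, 100, 157 and 174. Their tests against control use the libraries that chose them, so a lower level under cadmium is partly fixed by that choice. XM_010111018.1 stood at 509, 536 and 634 FPKM at 20 mM, against 1095, 1360 and 1044 FPKM in control, a log2 change of -1.05 ± 0.19 (SE, adjusted p = 0.0224). Its levels at 5 mM were 850, 1122 and 1004 FPKM and at 10 mM 708, 642 and 697 FPKM. The means thus lay in the order of the doses, the 5 mM libraries overlapped the control libraries, and those at 10 and 20 mM did not.

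XM_010112320.1 showed the same order. It stood at 404, 454 and 335 FPKM at 20 mM, against 897, 1311 and 770 FPKM in control, a log2 change of -1.29 ± 0.25 (adjusted p = 0.0333). At 5 mM it stood at 961, 775 and 659 FPKM, overlapping the control, and at 10 mM at 683, 456 and 631 FPKM, below it.

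The other two were less regular across doses. XM_010111549.1 stood at 207, 51.3 and 119 FPKM at 20 mM, against 852, 343 and 852 FPKM in control, a log2 change of -2.53 ± 0.52 (adjusted p = 0.0424). At 5 mM it stood at 494, 380 and 344 FPKM and at 10 mM at 900.0, 313 and 451 FPKM, both overlapping the control, so the 20 mM libraries lay below all others. XM_010108801.1, which like XM_010111018.1 was named after its values were seen, stood at 507, 358 and 374 FPKM at 20 mM, against 700, 766 and 766 FPKM in control, a log2 change of -0.86 ± 0.18 (adjusted p = 0.0452). Its 5 mM libraries, at 535, 461 and 425 FPKM, and its 10 mM libraries, at 602, 571 and 525 FPKM, were also all below the control, with adjusted p of 0.431 and 0.324.

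These calls depended on which libraries entered the fit, those of 5 and 10 mM included, which share in the estimate of the spread. Leaving out control replicate 1, or 20 mM replicate 2, took the count of 4 to 0 (29 and 25 members, 14.5% and 12.5%, at an unadjusted p under 0.05, where 12.9% and 11.2% of all tested transcripts were). It was 1 (0.5%) when 5 mM replicate 2 was left out, where 0.644% of all tested transcripts were called. It was 2 (1%) when replicate 3 of any group, control replicate 2 or 5 mM replicate 1 was left out, where 0.777% to 0.985% were. Fitting only control and 20 mM gave 0 (35 members, 17.5%, at an unadjusted p under 0.05, where 14.8% of all tested transcripts were). Calls over all tested transcripts were fewer in these fits too, 75 and 73 with the first 2 libraries left out in turn and 120 with only these groups, where the fit of all libraries called 226. The log2 changes kept their sign and lay over all alternatives between -1.15 and -0.94 for XM_010111018.1, -1.46 and -1.07 for XM_010112320.1, -2.99 and -2.0 for XM_010111549.1 and -1.02 and -0.70 for XM_010108801.1. XM_010111018.1 missed the threshold when replicate 1 or 2 of either the control or the 20 mM group was left out (adjusted p between 0.0594 and 0.0954, within 0.0116 to 0.0954 over its alternatives). XM_010112320.1 missed it when replicate 1 or 2 of the control, replicate 2 at 5 mM or any 1 library at 20 mM was left out (between 0.0586 and 0.103, within 0.0163 to 0.103). XM_010111549.1 lost its call in 8 of the 12 fits that left out 1 library, the exceptions leaving out control replicate 2, either of 10 mM replicates 1 and 2, and 20 mM replicate 1 (between 0.0599 and 0.150, within 0.00860 to 0.150). XM_010108801.1 lost it in 10 of the 12, the exceptions leaving out replicate 1 of the 10 mM or the 20 mM group (between 0.0525 and 0.161, within 0.0365 to 0.161).

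**Figure D5:**
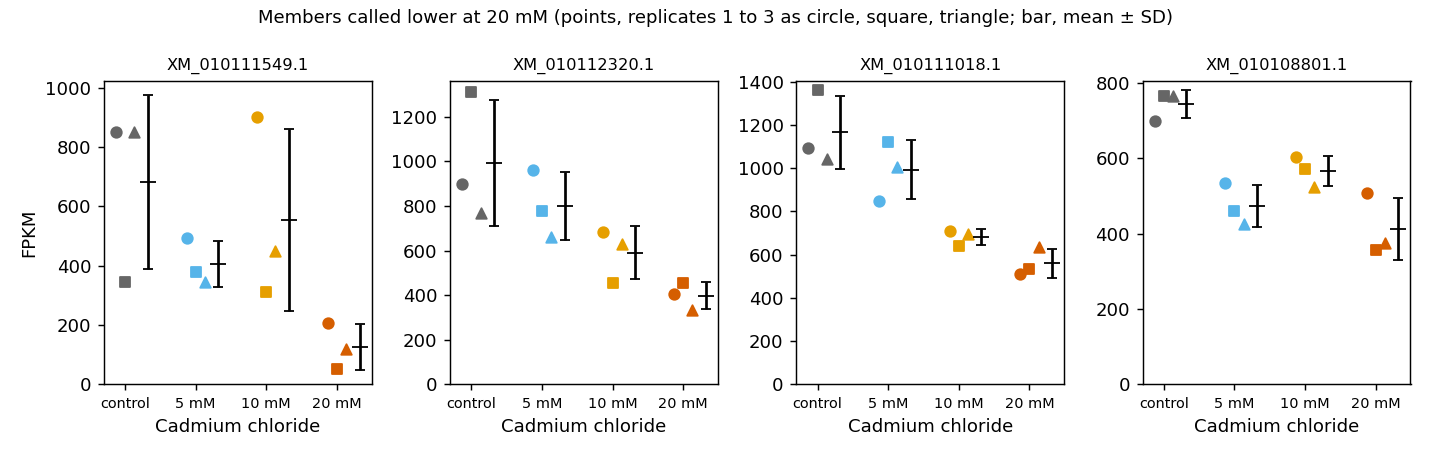
FPKM (y axis, from 0) of the 4 members called lower at 20 mM, with the dose of cadmium chloride on the x axis, 1 symbol per library and the mean ± SD (n = 3) beside them. In each panel the 3 libraries at 20 mM lie below the 3 control libraries, and XM_010111549.1 has its lowest library at 51.3 FPKM.

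No member was called higher than control at any dose by limma, where 0.0112%, 0.0956% and 0.579% of all tested transcripts were at 5, 10 and 20 mM. The members were chosen for high control values, so nothing is read from this. The members with the largest increases among those without overlap are given by their values. XM_010088342.1 stood at 1717, 1193 and 1381 FPKM at 20 mM, against 398, 786 and 1001 FPKM in control (log2 change 1.06 ± 0.30, adjusted p = 0.120). XM_010111077.1 stood at 1312, 1664 and 1093 FPKM at 20 mM, against 654, 561 and 991 FPKM in control (adjusted p = 0.189). Both were intermediate at 5 and 10 mM, with means of 868 and 859 FPKM for the first and 895 and 1025 FPKM for the second.

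At 10 mM the largest such increases were in transcripts that stood near the control level again at 20 mM. XM_010112457.1 stood at 1889, 1454 and 1693 FPKM at 10 mM, against 696, 1236 and 876 FPKM in control (adjusted p = 0.172), and averaged 932 ± 324 FPKM at 20 mM. XM_010090858.1 stood at 1471, 2577 and 2282 FPKM at 10 mM, against 1025, 1410 and 1090 FPKM in control (adjusted p = 0.167), and averaged 1297 ± 124 FPKM at 20 mM. Neither difference passed the test. Among decreases at 10 mM, XM_010092604.1 stood at 191, 572 and 502 FPKM at 10 mM, against 840, 1335 and 990 FPKM in control (adjusted p = 0.189).

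At 5 mM the widest separations were decreases. XM_010092719.1 stood at 198, 233 and 262 FPKM at 5 mM, against 572, 695 and 672 FPKM in control (log2 change -1.48 ± 0.43, adjusted p = 0.461). XM_010111472.1 stood at 339, 572 and 352 FPKM at 5 mM, against 900, 933 and 932 FPKM in control (adjusted p = 0.470). Both had libraries inside or above the control range at 10 or 20 mM, the first with 704 FPKM at 10 mM and the second with 1070 FPKM at 20 mM. The increases were smaller, and XM_010101818.1 stood at 1304, 1192 and 1034 FPKM at 5 mM, against 849, 929 and 887 FPKM in control (log2 change 0.40 ± 0.19, adjusted p = 0.561). It averaged 1290 ± 224 FPKM at 10 mM and 1456 ± 118 FPKM at 20 mM, so its means followed the order of the doses. XM_010095510.1 averaged 1140 ± 92.3 FPKM at 5 mM, against 886 ± 89.2 FPKM in control (adjusted p = 0.598).

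Log2 changes between doses use no control value, so the ranking does not enter them. The control libraries do enter the spread behind their tests. Deviations of same-numbered libraries correlated positively between control and 10 mM (0.170 to 0.268) and negatively between control and 20 mM (-0.187 to -0.0241). Between doses the median changes of the members were small and differed in sign. The median log2 change of the members was -0.010 between 20 and 5 mM, -0.020 between 10 and 5 mM and 0.0091 between 20 and 10 mM, and those over all tested transcripts were 0.0026, 0.035 and -0.052. A log2 change below 0 was found in 104, 109 and 97 members (52%, 54.5% and 48.5%), against 49.6%, 46.2% and 55.7% of all tested transcripts. The libraries of the groups compared did not overlap in 43, 37 and 31 members (21.5%, 18.5% and 15.5%), against 17.4%, 17.7% and 15.1%. By limma 0 members were called between 20 and 5 mM, 0 between 10 and 5 mM and 0 between 20 and 10 mM, where 0.309%, 0.0337% and 0.00562% of all tested transcripts were called. At an unadjusted p under 0.05 there were 23, 25 and 16 members (11.5%, 12.5% and 8%), where 9.67%, 11.5% and 9.75% of all tested transcripts were past it. Of these members 17, 17 and 10 were lower at the higher dose (8.5%, 8.5% and 5%), against 5.05%, 4.46% and 5.46% of all tested transcripts. Those higher were 6, 8 and 6 (3%, 4% and 3%), against 4.62%, 7.05% and 4.29%. This lean was not tested. The limma F test over the 3 doses called 0 members, where it called 0.191% of all tested transcripts, and 22 members (11%) had an unadjusted p under 0.05 in it, against 11.9%. With array weights, which let the libraries differ in their weight, 8 members were called between 20 and 5 mM (1 higher and 7 lower), 3 between 10 and 5 mM and 8 by the F test (4%, 1.5% and 4%). Over all tested transcripts the same fit called 672, 557 and 1009 (3.78%, 3.13% and 5.67%).

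The lowest adjusted p in the F test over doses was that of XM_010111549.1, at 0.172. Its 20 mM libraries, at 207, 51.3 and 119 FPKM, lay below its 5 mM libraries, at 494, 380 and 344 FPKM (log2 change -1.88 ± 0.52, adjusted p = 0.193). XM_010111547.1 had similar levels in the same libraries. It stood at 192, 46.6 and 115 FPKM at 20 mM, against 516, 459 and 456 FPKM at 5 mM (log2 change -2.22 ± 0.62, adjusted p = 0.200) and 981, 326 and 1084 FPKM in control. Both transcripts were lowest in 20 mM replicate 2 and, among the libraries at 10 mM, in replicate 2, and whether they share reads could not be examined without sequences. Of the other called members, XM_010111018.1 had an adjusted p of 0.111 between 20 and 5 mM, the lowest of any member there, XM_010112320.1 had 0.143 and XM_010108801.1 had 0.786.

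Among increases at 20 mM, XM_010100705.1 stood at 2058, 1389 and 3629 FPKM at 20 mM, against 1170.5, 1170.2 and 989 FPKM at 5 mM (log2 change 0.98 ± 0.35, adjusted p = 0.372). XM_010099983.1 stood at 957, 799 and 1202 FPKM at 20 mM, against 638, 327 and 669 FPKM at 5 mM (adjusted p = 0.554). Between 20 and 10 mM, XM_010102245.1 stood at 1506, 1349 and 1457 FPKM at 20 mM, against 202, 1208 and 816 FPKM at 10 mM (adjusted p = 0.560). Its control libraries, at 301, 474 and 1539 FPKM, overlapped both groups. XM_010102610.1 averaged 1019 ± 142 FPKM at 20 mM, against 579 ± 185 FPKM at 10 mM (adjusted p = 0.635), with control libraries from 218 to 1256 FPKM.

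Between 10 and 5 mM the largest separations were in XM_010103457.1 and XM_010103458.1. XM_010103457.1 stood at 819, 1536 and 695 FPKM at 10 mM, against 496, 333 and 177 FPKM at 5 mM (log2 change 1.63 ± 0.73, adjusted p = 0.426). XM_010103458.1 stood at 949, 1367 and 990 FPKM at 10 mM, against 711, 562 and 298 FPKM at 5 mM (adjusted p = 0.505). Both owed their rank to control replicate 2, where they reached 1834 and 1769 FPKM against at most 422 FPKM in the other two control libraries. In the other direction, XM_010092605.1 averaged 302 ± 137 FPKM at 10 mM, against 591 ± 252 FPKM at 5 mM (adjusted p = 0.377), and XM_010113518.1 averaged 410 ± 232 FPKM at 10 mM, against 735 ± 139.7 FPKM at 5 mM (adjusted p = 0.391).

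A run of group means in dose order was more often downward than upward among the members when the control was counted. From control through 20 mM the 4 means were in falling order in 26 members (13%) and in rising order in 7 (3.5%), where 5.49% and 6.52% of all tested transcripts were. Over 5, 10 and 20 mM alone, without the control values that chose the members, they were in falling order in 46 and in rising order in 35 (23% and 17.5%), against 16.3% and 15.3% of all tested transcripts. No test was made of these shares.

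Members differed widely in how steady they were. Over the 12 libraries the highest value was between 1.37 and 192 times the lowest, with a median of 2.41 times. It was under 2 times in 53 members, over 4 times in 36 and over 10 times in 6. All 200 were listed in every library, and 197 stood at 100 FPKM or more in all 12.

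The steadiest was XM_010089950.1, which stood at 647 ± 116 FPKM in control, 728 ± 42.3 FPKM at 5 mM, 668 ± 62.9 FPKM at 10 mM and 708 ± 32.2 FPKM at 20 mM. XM_010097923.1, ranked 23 in control, 20 at 5 mM and 21 at both higher doses, stood at 1972 ± 62.1, 2235 ± 266, 1987 ± 409 and 2080 ± 99.2 FPKM in control and at 5, 10 and 20 mM. XM_010094182.1 stood at 1094 ± 54.2 FPKM in control, 914 ± 124 FPKM at 5 mM, 912 ± 106 FPKM at 10 mM and 862 ± 61.5 FPKM at 20 mM. In these 3 members the 12 libraries stayed within a 1.5-fold range.

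The least steady was XM_010097886.1. It stood at 1793, 625 and 337 FPKM in control, 435, 226 and 552 FPKM at 5 mM, 325, 56.5 and 242 FPKM at 10 mM, and 22.3, 9.36 and 410 FPKM at 20 mM. The group means lay in dose order, but 20 mM replicate 3 was above the lowest control library, and the log2 change of -3.97 ± 1.15, the largest of any member in that comparison, had an adjusted p of 0.121. XM_010101171.1 also varied within every group, with 654, 1478 and 345 FPKM in control, 1245, 366 and 129 FPKM at 5 mM, 186, 2939 and 1536 FPKM at 10 mM, and 1082, 476 and 1847 FPKM at 20 mM. Its libraries overlapped between all groups.

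The spread within groups was about the same for the members as for other transcripts. The median SD of log2 values within treated groups was 0.32 for the members, 0.30 for the 800 transcripts next in the control order and 0.34 for all tested transcripts. Among the members it was 0.37 for the first 10 and 0.36 for the last 100, with 0.29 and 0.30 for the ranks between. At 20 mM, 16 members (8%, against 7.47% of all tested transcripts) had a log2 change of at least 1 in size, 1 of them among the first 10 and 10 of them among the last 100.

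Gains and losses summed over the members are measured from the control means that chose them, and are given as a description. At 20 mM the group means of 70 members were higher than in control by 24859 FPKM in all and those of 130 were lower by -37878 FPKM, a net difference of -13019 FPKM on a control sum of 264201 FPKM. XM_010108496.1 alone made up 19.8% of the gains (4927 FPKM). The largest single loss, in XM_010099964.1, was -1733 FPKM or 4.58% of the losses, so losses were spread over many members. At 5 mM the gains were 15810 FPKM and the losses -38053 FPKM, and at 10 mM they were 16937 FPKM and -38818 FPKM. The member sums of single libraries overlapped, at 256134, 231033 and 266380 FPKM at 20 mM, against 254302, 299802 and 238500 FPKM in control. Without control replicate 2, a setting chosen after seeing the data, the net difference at 20 mM turned to 4782 FPKM, and those at 5 and 10 mM were -4442 and -4081 FPKM, where all control libraries gave -22243 and -21881 FPKM. Between 20 and 5 mM the members gained 32343 FPKM and lost -23119 FPKM, a net difference of 9224 FPKM, of which XM_010108171.1 held the largest gain (4768 FPKM). The member sums at 5 mM were 251206, 242081 and 232588 FPKM and overlapped those at 20 mM. None of these sums was scaled to the library's FPKM sum. That sum averaged 913992 FPKM in control, and 887615, 917261 and 917508 FPKM at 5, 10 and 20 mM. As a share of it, the members averaged 27.3% at 5 mM and 27.4% at 20 mM.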

How the data were processed

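Total RNA of mulberry roots was sequenced in 12 libraries of 4 groups, taken with their replicate numbers from the sample labels. The authors deposited FPKM per transcript, per the file headers, in 1 table per library with a lowest value of 0.01. For the aligner, counting tool, build and read depth the sources used here give nothing, so no counting interval is given. Unlisted transcripts were set to 0. A transcript was tested if 3 or more libraries held 1 FPKM or more, which left 17782 of 22727 and kept all 200 members. Log2(FPKM + 1) values, on which changes of low transcripts are understated, were fitted with limma 3.58.1 (R 4.3.3) as group means over 12 libraries with a mean-variance trend. Adjusted p-values are two-sided with a threshold of 0.05 over all tested transcripts. The procedure was tested on simulated data.

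Named were the first 10 members, 5 transcripts at either side of rank 200, at most 2 members per direction and comparison (called ones, otherwise the largest log2 change without overlap), the highest outside transcripts at 20 mM and 3 members with the widest and narrowest range. Where 4 were called, all are named. Not every named transcript is described singly. Lists of gene families and tissue markers could not be applied without names. The members and lists were chosen with earlier results of these data known.

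Libraries of control and 10 mM with the same number deviated from their group means together (correlations across transcripts of 0.268, 0.170 and 0.176), and in no other pair of groups were all 3 over 0.1. Between control and 20 mM all 3 were negative (-0.0241, -0.146 and -0.187). Libraries of different number were not compared, so these values do not show a pairing. The labels name no shared batch.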

Additional observations from a re-analysis of the deposited data

How the results depend on the processing

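For the members named for a comparison, by a call or by groups without overlap, no log2 change in that comparison reversed under the alternatives run. The 4 members called at 20 mM became 0 to 5 when 1 library was left out, 1 without a filter, 2 with robust moderation and no trend, and 0 with only the 2 groups in the fit. The share of all tested transcripts called, 1.27% in the main fit, was 0.413% to 1.82%, 0.722%, 0.962% and 0.723% in these fits. With members ranked on 2 control libraries and the third alone in the fit, an alternative chosen after seeing the data, the count was 0 in each of the 3 cases, with 36, 34 and 18 members (18%, 17% and 9%) at an unadjusted p under 0.05, where 13.3%, 15.2% and 9.31% of all tested transcripts were. Over all tested transcripts 25, 34 and 19 were called in these fits (0.142%, 0.194% and 0.108%), in which the lone control library is assumed to vary like the other groups. Calls between doses, 0 by limma, were 8 between 20 and 5 mM, 3 between 10 and 5 mM and 8 by the F test with array weights (4%, 1.5% and 4%, where 3.78%, 3.13% and 5.67% of all tested transcripts were called). With only those groups fitted, 1 member was called between 20 and 5 mM (0.5%, against 0.619% of all tested transcripts). With the replicate block 1 was called between 20 and 5 mM and 1 by the F test (0.5% each, against 0.259% and 0.157%). The block pairs libraries by number, and such a pairing was not shown. At 10 mM against control it left 0 members called, where 0.0450% of all tested transcripts were called. It also ended the call of XM_010108801.1 at 20 mM (adjusted p = 0.0546). The other calls lost were those of XM_010108801.1 with median scaling (0.0534), no filter (0.0618), robust moderation (0.0609) and array weights (0.0628), of XM_010111549.1 with no filter (0.0613), quantile normalization (0.0556) and robust moderation (0.0544), and of XM_010112320.1 with no filter (0.0520). Fitted on control and 20 mM alone, these 3 and XM_010111018.1 had adjusted p of 0.135, 0.104, 0.0893 and 0.0912. The cause was not tested.

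The control share of 28.8% was taken again with members ranked on 2 control libraries. It was 27.4%, 30.2% and 25.6% with control replicates 1, 2 and 3 as the control value. In control and at 5, 10 and 20 mM, 100 members held 20.4%, 19.2%, 18.2% and 19.4%, and 500 members held 43.0%, 41.3%, 40.3% and 41.3%. Of 100 members 78, 72 and 72 were among the 100 most abundant at 5, 10 and 20 mM, and of 500 members 438, 416 and 409 were among the 500. Read depth is unknown and limits the precision in ways that could not be measured.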
